A study of Mus musculus with 4 samples.

Results

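The results concern 10 mouse genes that regulate oxidative and fatty acid metabolism in muscle: the coactivators Ppargc1a and Ppargc1b, the estrogen-related receptors Esrra and Esrrg, the peroxisome proliferator-activated receptors Ppara and Ppard, the mitochondrial regulators Nrf1 and Tfam, and the effector genes Pdk4 and Ucp3. They were chosen by name: every probe of the array design annotated with 1 of these symbols was used, which gave 19 probes of 39429 and 10 genes of 31896. RNA came from mouse 3D engineered muscle, a skeletal muscle tissue built in culture. The 4 groups were tissue without acute EPS at 0 min, tissue without acute EPS at 5 h, tissue at 0 min after 30 min of acute EPS and tissue at 5 h after 30 min of acute EPS, where EPS is an electrical stimulus that makes cultured muscle contract and the tissue without it was the negative control. Each group was measured on 1 single-colour array, so the comparisons have no replicates, no test was possible, and every difference below describes 4 arrays. The labels give no strain, genotype or cell source and do not say how many tissues were pooled. The labelling protocol names leukocytes as the source of RNA, whereas the titles, tissue fields and extraction protocol name muscle.

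PGC-1 coactivators, encoded by Ppargc1a and Ppargc1b, bind no DNA themselves. They dock on transcription factors such as the ERR and PPAR nuclear receptors and NRF1, and raise the transcription of genes for mitochondrial respiration, fatty acid oxidation and mitochondrial DNA upkeep. In skeletal muscle, contraction is known to act on Ppargc1a through calcium, AMPK and CREB signalling, and the pathway is known for its part in the adaptation of muscle to endurance exercise.

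The unit throughout is the level, the log2 of a probe's processed signal minus the log2 of the 75th percentile of that signal on the same array. That percentile was 1093 to 1492 in signal units, 19169 to 19423 genes per array were well above background, and no spot was saturated. The array's own error was taken from the 399 probes printed at least 10 times per array. Of these, the 272 to 275 well above background on both arrays of a comparison were used, 46 to 54 of them below level -3. Their log2 difference between arrays had a standard deviation over spots whose 95th percentile was 0.10 to 0.12 at level 0 and above. It was 0.13 to 0.14 for levels from -3 to 0 and 0.46 to 0.51 below -3. This is called the spot error; it covers spots of 1 labelled RNA and not the spread between tissues. All 20 muscle fibre markers were well above background. Among markers of other cells, 1 of 10 fibroblast, 6 of 9 adipocyte, 3 of 7 brown adipocyte, 4 of 7 endothelial, 3 of 8 leukocyte, 1 of 9 cardiomyocyte and 1 of 6 liver markers failed the background test on every array. Those that failed included Adipoq, which defines adipocytes, and Ptprc, which defines leukocytes, with signals of 5.69 to 12.8 and 3.59 to 5.1. Other markers of these lists passed on all 4 arrays. They were Fabp4 and Pparg for adipocytes, and Itgam (signals of 7588 to 10394), Csf1r, Cd3e and Cd68 for leukocytes.

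The largest differences among the 10 genes lay between time points. At 5 h, Ppargc1a was about 3.5-fold lower than at 0 min and Ppard about 2.5-fold higher, both with and without EPS. Esrrg, whose probes were dim, was about 2-fold lower, and fell short of 2-fold under another background correction. With EPS against no EPS, none of the 10 genes reached 2-fold or 1.5-fold at either time point. All 10 genes were well above background on all 4 arrays by their brightest probe, which represents the gene.

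**Figure D1:**
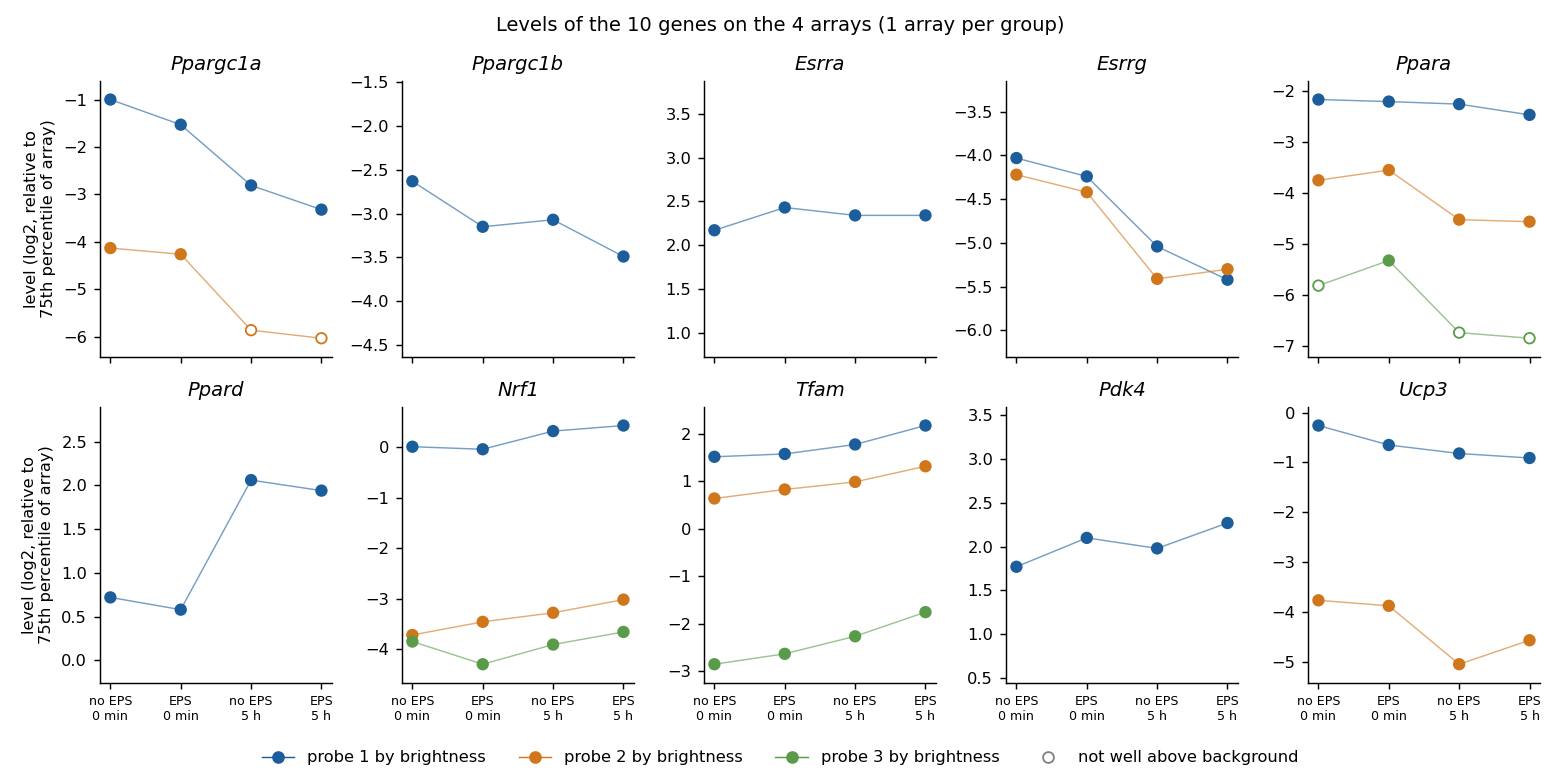
Level of each of the 19 probes (y axis, log2 relative to the 75th percentile of the array) on the 4 arrays (x axis); colours are the probes of a gene ordered by brightness, and open circles were not well above background. Ppargc1a and Esrrg sit lower and Ppard higher on both 5 h arrays, while the levels of Esrra span 2.17 to 2.43.

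Ppargc1a encodes PGC-1α, the inducible coactivator of the family. Its brightest probe lies on the minus strand of chromosome 5, 51848928 to 51848987 on build mm9, at base 2964 of the transcript. Its signal was 682 without EPS at 0 min, 379 with EPS at 0 min, 183 without EPS at 5 h and 150 with EPS at 5 h. The levels were -1.0, -1.53, -2.81 and -3.32 in the same order, so both 5 h arrays were below both 0 min arrays and, at each time, the EPS array was below the array without EPS. Between 0 min and 5 h the difference was -1.81 without EPS (3.51-fold lower) and -1.79 after EPS (3.45-fold lower), against a spot error of 0.14 in both. These 2 comparisons share no array. Counted from the most reduced gene, Ppargc1a ranked 77 of 18491 without EPS and 113 of 18471 after EPS. A second probe, at base 4966 of the transcript, was well above background on the 0 min arrays and not on the 5 h arrays, so its fold is a bound: at least 3.31-fold lower without EPS and at least 3.42-fold lower after EPS. Of that probe the measured levels were -4.13 and -5.86 without EPS, and -4.26 and -6.03 after EPS. For a bound, the dim array was taken at its measured level or at the dimmest level that passed the background test there, whichever was higher.

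With EPS, Ppargc1a was 1.44-fold lower at 0 min (-0.53, spot error 0.13) and 1.42-fold lower at 5 h (-0.51, spot error 0.46). At 0 min 6.59% of all measured genes differed as far or further in either direction, and at 5 h 7.12%. The dimmer probe gave -0.13 at 0 min, within its spot error of 0.51. The lower value with EPS therefore rests on the brighter probe, and was not seen beyond spot error in the dimmer one.

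Promoters are shown for Ppargc1a and Ppard, which had the largest differences over time in opposite directions, and for Tfam, whose 3 probes were all higher with EPS at 5 h. They were picked after these values were seen, and each gene has 1 window in the RefSeq table. Each sequence spans 250 bases before to 50 after the RefSeq start, 5′ to 3′ on the gene's strand, in build GRCm38.p6. Capitals mark matches to the motifs searched on both strands. Ppargc1a is at chr5:51567676-51567975 on the minus strand, Ppard at chr17:28232504-28232803 on the plus strand and Tfam at chr10:71237995-71238294 on the minus strand.
Ppargc1a: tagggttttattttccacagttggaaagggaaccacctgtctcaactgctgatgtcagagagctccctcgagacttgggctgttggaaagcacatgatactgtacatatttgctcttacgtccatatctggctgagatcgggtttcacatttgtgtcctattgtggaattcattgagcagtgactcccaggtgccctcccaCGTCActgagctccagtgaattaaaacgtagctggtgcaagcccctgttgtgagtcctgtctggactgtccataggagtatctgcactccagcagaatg
Ppard: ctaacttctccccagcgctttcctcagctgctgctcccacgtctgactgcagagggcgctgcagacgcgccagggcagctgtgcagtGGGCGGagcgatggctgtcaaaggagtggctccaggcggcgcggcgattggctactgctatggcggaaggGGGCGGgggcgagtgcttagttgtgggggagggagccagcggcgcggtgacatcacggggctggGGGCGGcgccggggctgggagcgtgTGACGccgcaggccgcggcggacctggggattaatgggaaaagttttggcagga
Tfam: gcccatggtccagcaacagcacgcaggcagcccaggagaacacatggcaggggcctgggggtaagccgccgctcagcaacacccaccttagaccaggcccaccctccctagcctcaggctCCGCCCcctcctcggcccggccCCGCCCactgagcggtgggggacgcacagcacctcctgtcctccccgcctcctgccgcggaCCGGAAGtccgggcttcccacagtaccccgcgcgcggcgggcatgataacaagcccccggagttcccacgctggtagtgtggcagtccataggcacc

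The motifs were the cyclic AMP response element (CRE) TGACGTCA, the short CRE TGACG, which lies within the full one, the ERR element AAGGTCA, the nuclear receptor hexamer AGGTCA, which lies within the ERR element, the NRF1 core TGCGCA, the ETS motif CCGGAAG bound by NRF2/GABP, and the GC box GGGCGG. The Ppargc1a window held 1 match, a short CRE on the reverse strand starting 49 bases before the start. The Ppard window held a short CRE starting 4 bases before the start and 3 GC boxes. The Tfam window held an ETS motif starting 47 bases before the start and 2 GC boxes. Of 32851 mouse promoter windows of the same length, 20.8% held a short CRE, 8.86% the ETS motif and 35.7% a GC box. The other shares were 1.79% for the full CRE, 4.72% for the ERR element, 16.3% for the receptor hexamer and 7.76% for the NRF1 core. The search of the 10 genes left out chromosome 18, where Ppargc1b lies. In all, 13 windows of the other 9 genes were searched. The receptor hexamer was found in 1 of them, that of Ucp3, which held 2; the NRF1 core was found in that of Esrra; and neither the full CRE nor the ERR element was found in any. The GC content was 48.7% for Ppargc1a, 68.3% for Ppard and 70.3% for Tfam, against a median of 52.7% over all windows. A match describes letters and not a bound site.

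Ppargc1b, which encodes the related coactivator PGC-1β, had 1 probe. Its signal was 220 without EPS at 0 min, 123 with EPS at 0 min, 153 without EPS at 5 h and 132 with EPS at 5 h. The levels were -2.63, -3.15, -3.07 and -3.49, with the highest on the unstimulated 0 min array. With EPS it was 1.43-fold lower at 0 min (-0.52, spot error 0.13) and 1.34-fold lower at 5 h (-0.42, spot error 0.46). Over time the difference was -0.44 without EPS and -0.35 after EPS, the latter within a spot error of 0.48. The EPS comparison at 0 min and the time comparison without EPS share the unstimulated 0 min array, on which both coactivators were at their highest.

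Among 22 coactivators and corepressors of nuclear receptors, Ppargc1a was the only one at least 2-fold different over time without EPS. After EPS, Ppargc1a and Perm1 were. Perm1 encodes a muscle regulator induced by PGC-1 and ERR. Its levels were -4.13 and -3.46 at 0 min without and with EPS, and -4.65 and -5.20 at 5 h, in the range where spot error is 0.46 to 0.51. It was 0.67 higher with EPS at 0 min and 0.56 lower with EPS at 5 h, and differed by -1.74 over time after EPS. The medians of the 22 genes were 0.06 and -0.02 for EPS at 0 min and 5 h, and 0.11 and 0.10 over time without and after EPS. Pus1 was the highest with EPS at 5 h (0.21), Ep300 over time without EPS (0.86) and Pprc1, the PGC-1-related coactivator, over time after EPS (0.51).

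Esrra encodes ERRα, a receptor without a known hormone ligand that acts with PGC-1 at genes of respiration. It was the gene with the narrowest range: its signal was 6111 without EPS at 0 min, 5889 with EPS at 0 min, 6473 without EPS at 5 h and 7564 with EPS at 5 h. The levels were 2.17, 2.43, 2.34 and 2.34, so only the unstimulated 0 min array stood lower. The EPS difference was 0.26 at 0 min (spot error 0.11) and 0.00 at 5 h. Over time it was 0.17 without EPS and -0.09 after EPS, and the latter became 0.09 when the arrays were scaled to their medians.

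Esrrg encodes ERRγ, known for its part in oxidative muscle fibres. Both its probes lie on the plus strand of chromosome 1, 190038384 to 190038443 and 190038192 to 190038251 on build mm9. The brighter probe had signals of 83.7 without EPS at 0 min, 58.0 with EPS at 0 min, 38.8 without EPS at 5 h and 34.7 with EPS at 5 h, with levels of -4.03, -4.24, -5.04 and -5.42. The other gave levels of -4.22, -4.42, -5.41 and -5.30. On both probes the 5 h arrays were below the 0 min arrays. The brighter probe was 2.02-fold lower at 5 h without EPS (-1.02, spot error 0.49) and 2.28-fold lower after EPS (-1.19, spot error 0.48); the other gave -1.20 and -0.88. These are dim probes, and the values depended on background correction: with normexp correction the differences were -0.40 and -0.63. Without EPS the difference was -0.88 under quantile normalization and under median scaling, short of 2-fold. With EPS the brighter probe differed by -0.21 at 0 min and -0.38 at 5 h, both within the spot error.

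Ppara encodes PPARα, the receptor that drives fatty acid oxidation in tissues with high oxidative demand. Its 3 probes did not give the same picture over time. The brightest, at base 2697 of the transcript, had signals of 304 without EPS at 0 min, 236 with EPS at 0 min, 267 without EPS at 5 h and 269 with EPS at 5 h, with levels of -2.17, -2.21, -2.26 and -2.47. It differed by -0.10 over time without EPS and -0.26 after EPS; scaled to array medians, these were 0.03 and -0.08. The next probe, at base 2273, had levels of -3.75, -3.55, -4.52 and -4.56 and differed by -0.77 and -1.02 over time, more than its spot error of 0.49 and 0.48. The dimmest, at base 7356, passed the background test only on the array of EPS at 0 min. Its bound was at least 2.14-fold lower at 5 h after EPS. With EPS at 0 min the bound was 1.41-fold higher, a difference of 0.49 within its spot error of 0.51. Averaged over the probes, the time difference was -0.59 without EPS and -0.93 after EPS. With EPS the brightest probe differed by -0.05 at 0 min, where the mean of the probes gave 0.21, and by -0.21 at 5 h.

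Ppard encodes PPARδ, a fatty acid receptor present in most tissues and abundant in skeletal muscle. Its 1 probe lies on the plus strand of chromosome 17, 28438298 to 28438357 on build mm9. Its signal was 2243 without EPS at 0 min, 1631 with EPS at 0 min, 5335 without EPS at 5 h and 5722 with EPS at 5 h. The levels were 0.72, 0.58, 2.06 and 1.94, so both 5 h arrays stood well above both 0 min arrays. It was 2.53-fold higher at 5 h without EPS (1.34, spot error 0.12) and 2.57-fold higher after EPS (1.36, spot error 0.11), and ranked 165 of 18491 and 192 of 18471 from the most increased gene. With EPS it differed by -0.14 at 0 min and -0.12 at 5 h, slightly more than the spot error of 0.11 and 0.10. Its time difference was thus opposite in sign to that of Ppargc1a and Esrrg on the same arrays.

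Counted over the 10 genes, 1 (Ppard) was at least 2-fold higher at 5 h without EPS, where 1.74% of all measured genes were, and 2 (Ppargc1a and Esrrg) were at least 2-fold lower, where 2.96% of all genes were. After EPS the same genes passed: 1 higher against 2.4% of all genes, and 2 lower against 3.65%. The median of the 10 was 0.04 without EPS and -0.17 after EPS, beside -0.02 and -0.08 over all genes. The split of all 2-fold calls moved with scaling: 37.1% of those without EPS and 39.7% of those after EPS were higher at 5 h, against 54.8% and 64.0% when arrays were scaled to their medians, which raised the median of all genes to 0.11 and 0.10, and 45.0% and 50.6% under quantile normalization. Ppargc1a stayed lower and Ppard higher at 2-fold under each of the 7 settings tried. Of these, the deposited value table and the 2 changes of the background filter could not alter the values. Nor could the mean of a gene's probes for Ppard, which has 1 probe. With EPS, 0 of the 10 genes passed 2-fold at 0 min, where 1.34% of all genes did, and 0 at 5 h, where 1.21% did. At 1.5-fold the counts were also 0, against 5.35% and 5.01% of all genes. Their EPS differences ran from -0.53 to 0.32 at 0 min and from -0.51 to 0.39 at 5 h, with a median of -0.10 at both.

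**Figure D2:**
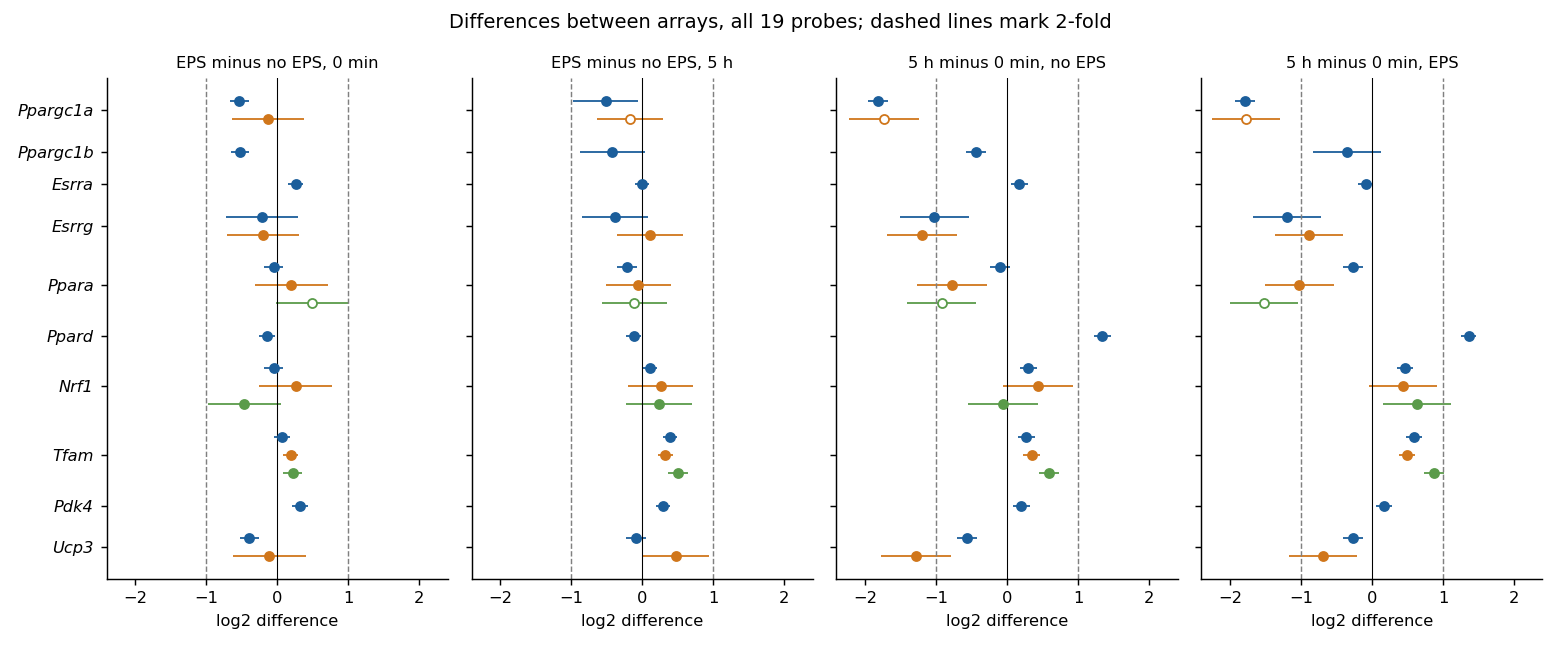
Log2 difference (x axis) of each of the 19 probes in the 4 comparisons; blue, orange and green are the brightest, next and dimmest probe of a gene, bars are the spot error for probes of that level, and open circles were not well above background on both arrays. Ppargc1a (-1.81 and -1.79) and Ppard (1.34 and 1.36) lie past the dashed 2-fold lines over time, and no filled point lies past them in the EPS comparisons.

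**Figure D3:**
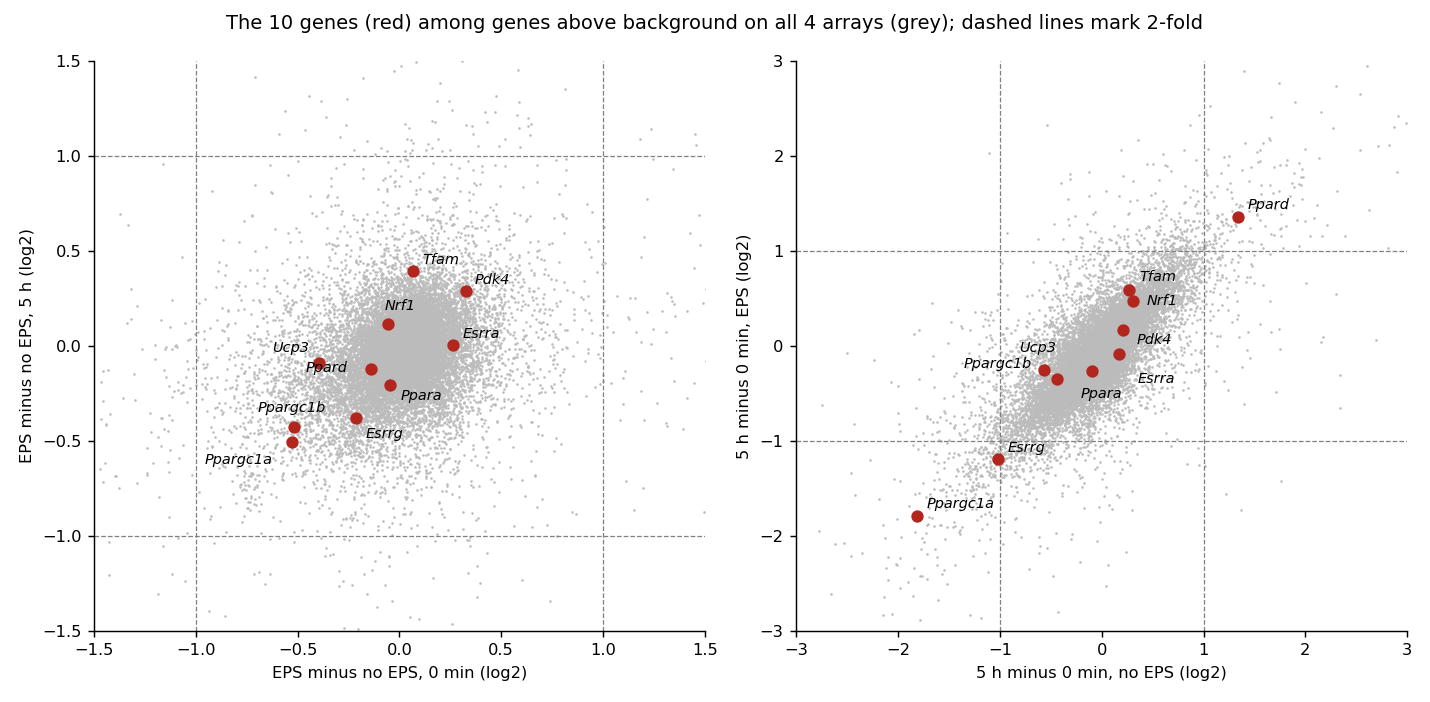
Log2 differences of the 10 genes (red) and of the 18111 genes that passed the background test on all 4 (grey): EPS minus no EPS at 0 min (x) against 5 h (y) on the left, and 5 h minus 0 min without EPS (x) against after EPS (y) on the right; 100 and 40 genes lie outside the axes. Ppargc1a, Esrrg and Ppard lie away from 0 along both axes on the right, and all 10 genes lie inside the 2-fold lines on the left.

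Nrf1 encodes nuclear respiratory factor 1, a transcription factor of nuclear genes for the respiratory chain. Its brightest probe had signals of 1375 without EPS at 0 min, 1063 with EPS at 0 min, 1593 without EPS at 5 h and 2009 with EPS at 5 h, with levels of 0.01, -0.04, 0.32 and 0.43. The 5 h arrays were both higher, by 0.30 without EPS and 0.47 after EPS, against spot errors of 0.12 and 0.11. The next probe gave 0.44 and 0.44 and the dimmest -0.06 and 0.64, all at levels below -3. With EPS the brightest probe differed by -0.05 at 0 min and 0.11 at 5 h.

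Tfam encodes the mitochondrial transcription factor that packages and transcribes mitochondrial DNA. Its brightest probe, on the minus strand of chromosome 10 at 70691103 to 70691162 on build mm9, had signals of 3901 without EPS at 0 min, 3279 with EPS at 0 min, 4409 without EPS at 5 h and 6751 with EPS at 5 h. The levels were 1.52, 1.58, 1.78 and 2.18, with the stimulated 5 h array the highest. At 5 h it was 1.31-fold higher with EPS (0.39, spot error 0.10), and the other probes gave 0.33 and 0.51, so all 3 probes exceeded their spot error in 1 direction. The 3 probes were read on the same arrays. By brightest probe, 12.2% of all measured genes differed as far or further in either direction at 5 h. At 0 min the 3 probes gave 0.07, 0.19 and 0.22. Over time after EPS Tfam was 1.51-fold higher on the brightest probe (0.59), with 0.49 and 0.88 on the others. Without EPS the differences over time were 0.27, 0.35 and 0.59. On the brightest probe the EPS difference of Tfam was 0.33 higher at 5 h than at 0 min (spot error 0.15). The other probes gave 0.14, within its spot error of 0.15, and 0.30. By brightest probe, 0.33 was the largest such positive value of the 10 genes, with Ucp3 next at 0.30. Of all measured genes, 22.2% had a difference of EPS effects as large in either direction. No member reached 2-fold in the difference of EPS effects, where 1.99% of all genes did.

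Among 29 genes of mitochondrial DNA expression and maintenance, Tfam was the highest with EPS at 5 h. There 21 of 29 lay above 0, with a median of 0.11, beside 43.4% and -0.03 over all genes, and Rrm2b, a ribonucleotide reductase subunit, was the lowest at -0.26. At 0 min the median was 0.04, with Mgme1 at 0.33 and Mtif2 at -0.25. Over time the medians were 0.05 without EPS, from Tfb1m at -0.65 to Gabpb1 at 0.48, and 0.11 after EPS, from Tfb1m at -0.75 to Elac2 at 0.77. Tfb1m encodes a methyltransferase of mitochondrial ribosomal RNA, and Elac2 an RNase that trims mitochondrial transfer RNA. None of the 29 passed 2-fold in these comparisons.

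Pdk4 encodes a kinase that inhibits pyruvate dehydrogenase, and with it glucose oxidation, and is a known target of PPAR, ERR and FoxO factors. Its 1 probe had signals of 4660 without EPS at 0 min, 4681 with EPS at 0 min, 5046 without EPS at 5 h and 7184 with EPS at 5 h, with levels of 1.77, 2.10, 1.98 and 2.27. The EPS array was higher at each time, by 0.32 (1.25-fold, spot error 0.11) at 0 min and 0.29 (1.22-fold, spot error 0.10) at 5 h. At 0 min 16.7% of all measured genes differed as far or further, and at 5 h 21.3%. Over time Pdk4 was 0.20 higher without EPS and 0.17 higher after EPS. In 16 measured genes of the pyruvate dehydrogenase complex, its kinases and phosphatases and linked enzymes, Pdk4 was the highest with EPS at both times, where the list medians were 0.05 and -0.05. The lowest were Pdk3 at 0 min (-0.24) and Pcx, pyruvate carboxylase, at 5 h (-0.36). The kinase gene Pdk1 went the other way over time, by -0.77 without EPS and -1.10 after EPS, the only one of the 16 at 2-fold; Dld was the highest, at 0.21 and 0.31. The medians over time were -0.01 and -0.19.

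Ucp3 encodes a mitochondrial carrier of muscle that responds to fatty acids. Its brighter probe had signals of 1137 without EPS at 0 min, 695 with EPS at 0 min, 723 without EPS at 5 h and 793 with EPS at 5 h. The levels were -0.26, -0.65, -0.82 and -0.91, with the unstimulated 0 min array the highest. It was 0.39 lower with EPS at 0 min (spot error 0.13) and 0.09 lower at 5 h, and over time 0.56 lower without EPS and 0.26 lower after EPS. The dimmer probe gave -1.28 over time without EPS, -0.69 after EPS, and -0.11 and 0.48 with EPS at 0 min and 5 h. The mean of both probes was 0.92 lower over time without EPS, and 0.19 higher with EPS at 5 h, opposite in sign to the brighter probe. Of 7 measured uncoupling proteins and adenine nucleotide carriers none reached 2-fold; the list medians were 0.01 and -0.09 with EPS, and -0.07 and -0.17 over time. Slc25a14 was the highest with EPS, at 0.32 and 0.15, and Slc25a5, an adenine nucleotide carrier, over time, at 0.62 and 0.68. The lowest were Ucp2 (-0.49) and Slc25a27 (-0.45) with EPS, and Ucp3 and Slc25a4 (-0.27) over time.

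The other metabolic nuclear receptors were set beside the ERR and PPAR genes. Of 21 measured, 5 were above 0 and 16 below over time without EPS (median -0.11), and 4 and 17 after EPS (median -0.26). Scaled to array medians these list medians were 0.02 and -0.08, beside 0.11 and 0.1 over all genes. Of the 21 receptors, Ppard was the only one at least 2-fold higher. Nr1d1, the clock repressor REV-ERBα, was at least 2-fold lower without EPS (-1.09), as was Esrrg, which was also lower after EPS. With EPS none reached 2-fold: Vdr was the highest (0.41) and Nr1d1 the lowest (-0.63) at 0 min, and Nr1h3 (0.14) and Thra (-0.46) at 5 h, with medians of 0.09 and -0.15.

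Of 34 measured genes for signals that act on Ppargc1a (calcium and AMPK kinases, p38, CREB and MEF2 factors, sirtuins), none differed 2-fold in any of these 4 comparisons. Creb1, the cyclic AMP response factor, was the lowest with EPS at both times, at -0.53 and -0.47, and Sirt1, a deacetylase of PGC-1α, the highest at 0 min (0.50). Prkab1, an AMPK subunit, was the highest with EPS at 5 h (0.39). Over time Camkk2, a kinase of AMPK, was the highest without EPS (0.82) and Prkag3, an AMPK subunit, the lowest (-0.59); after EPS these were Mef2d (0.51) and Prkaa2 (-0.67). The list medians were 0.05 and 0.01 with EPS, and -0.02 and -0.14 over time.

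Targets of the receptors were described by count and median beside all genes. Of 36 PPAR target genes, a list that holds Pdk4 and Ucp3, 33 were measured. Over time 25 of 33 were below 0 without EPS (median -0.23) and 27 of 33 after EPS (median -0.28), where 47.5% and 42.5% of all genes were above 0. Plin4, a lipid droplet protein, was the lowest, at -1.37 and -1.91, with levels of 0.75 and 0.91 at 0 min without and with EPS, and -0.62 and -1.0 at 5 h. Slc25a34 was at least 2-fold lower over time after EPS, from a level of -3.51 to -4.52, where the spot error is 0.48. With normexp correction, quantile normalization or median scaling, only 1 of the 33 was at least 2-fold lower there. Plin2, another lipid droplet protein, was the highest over time, at 0.68 and 0.74. With EPS the list medians were 0.07 at 0 min, from Ucp2 at -0.49 to Fabp4 at 0.70, and -0.01 at 5 h, from Plin4 at -0.38 to Angptl4, an inhibitor of lipoprotein lipase, at 0.69. Fabp4 was dim, at levels of -5.43 to -4.73. Scaled to array medians, 20 of 33 were below 0 in both time comparisons, with medians of -0.09 and -0.10, and 23 of 33 were above 0 with EPS at 5 h, with a median of 0.07. Under that scaling the medians of all genes were 0.11 and 0.1 over time, and 0.05 with EPS at 5 h.

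ERR and PGC-1 target genes of oxidative metabolism were 39 of 43 above 0 with EPS at 0 min, where 54.5% of all genes were; the list median was 0.13, beside 0.02 over all genes. Perm1 was the highest (0.67) and Idh3g the lowest (-0.04), and none reached 2-fold. At 5 h 18 were above 0 and 25 below, with a median of -0.03, Vegfa at 0.47 and Perm1 at -0.56. On array medians 31 were above 0 at 5 h (median 0.06, beside 0.05 over all genes), and under quantile normalization 24 were. Over time 28 of 43 were below 0 without EPS (median -0.04, from Perm1 at -0.52 to Cycs, cytochrome c, at 0.32). After EPS 40 of 43 were below 0 (median -0.17), with Vegfa the highest (0.38) and Perm1 alone at 2-fold. The sign over time depended on scaling: on array medians 6 of 43 were below 0 without EPS (median 0.09) and 21 after EPS (median 0.01). The medians of all genes moved too, from -0.02 to 0.11 without EPS and from -0.08 to 0.1 after EPS. The list medians lay below those of all genes in both settings. Under quantile normalization 31 of 43 were above 0 with EPS at 0 min, with a median of 0.04. The sizes lie under 2-fold for all but Perm1, whereas Ppargc1a differed 3.5-fold over time.

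Muscle fibre markers differed between the arrays too. Their summed signal, in units of the array's 75th percentile, was 1294 without EPS and 1496 with EPS at 0 min, and 1212 and 1133 at 5 h. Their median difference was 0.15 with EPS at 0 min, with 16 of 20 above 0, -0.08 at 5 h, -0.15 over time without EPS and -0.38 after EPS, with 16 and 17 of 20 below 0. These values depended on scaling. Under quantile normalization 12 of 20 were above 0 with EPS at 0 min (median 0.02) and 15 at 5 h (median 0.04), and on array medians 11 of 20 were below 0 over time without EPS (median -0.02). After EPS the time median was -0.18 under quantile normalization and -0.20 on array medians. All genes had time medians of 0.11 without EPS and 0.1 after EPS on array medians. The 9 measured fibroblast markers had medians of -0.38 and -0.62 over time, with summed signals of 328 and 359 at 0 min without and with EPS and 299 and 256 at 5 h. The other marker lists had summed signals over the 4 arrays of 0.680 to 1.01 for adipocyte, 29.3 to 42.2 for brown adipocyte, 1.99 to 3.51 for endothelial, 6.44 to 8.40 for leukocyte, 109 to 137 for cardiomyocyte and 7.09 to 10 for liver markers. Fewer cells of a type and less RNA per cell cannot be told apart in bulk tissue, and the part of cell makeup in the differences was not tested. Over time without and after EPS, the lowest muscle fibre marker was Myh4, at -0.72 and -0.75, the lowest fibroblast marker Pdgfrb, at -1.77 and -2.43, and the lowest cardiomyocyte marker Myh6, at -1.53 and -1.58, beside -1.81 and -1.79 for Ppargc1a.

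**Figure D4:**
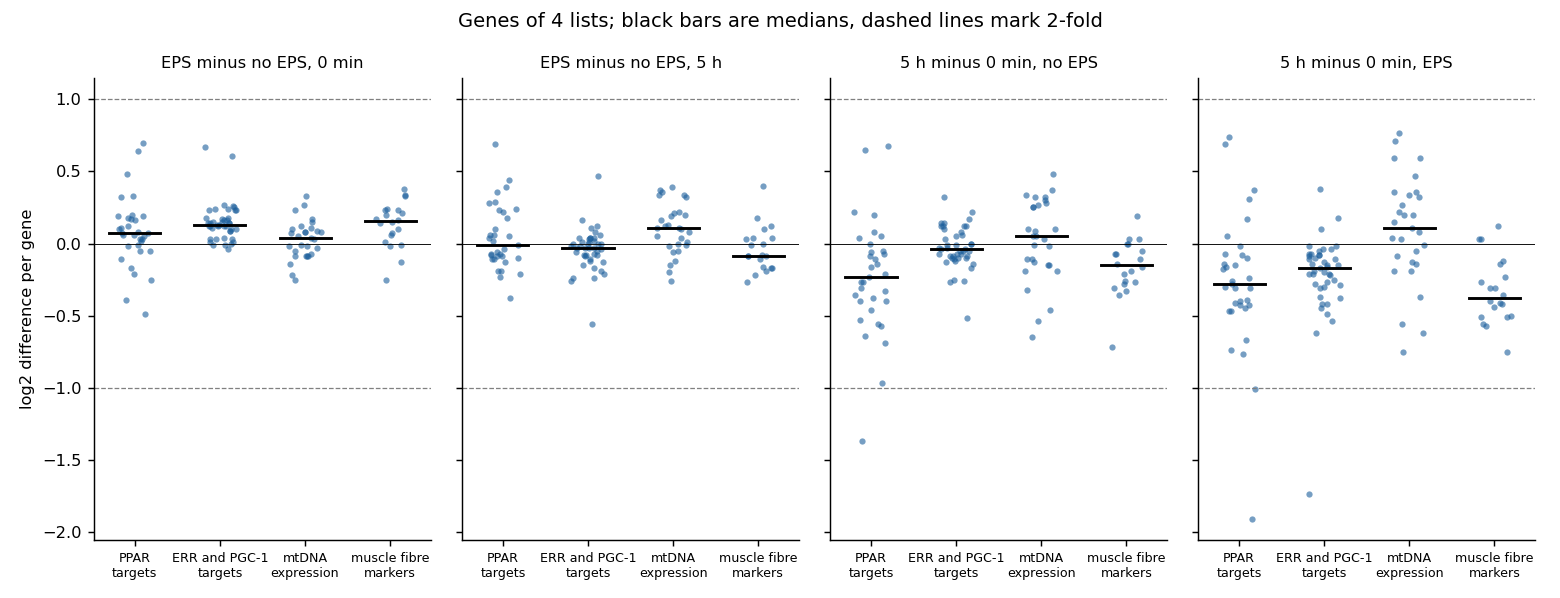
Log2 difference of each measured gene (points, y axis) of 4 lists (x axis) in the 4 comparisons; black bars are medians. The ERR and PGC-1 targets have a median of 0.13 with EPS at 0 min and -0.17 over time after EPS. The latter is 0.01 on array medians, beside 0.1 over all genes. The muscle fibre markers have 0.15 and -0.38 in the same comparisons.

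Genes with the most similar course over the 4 arrays were found by the root mean square difference of levels, each centred on its own mean, among 12984 named genes well above background on all 4 arrays. They were sought for the 3 genes whose levels spanned at least 1. For Ppargc1a, which spanned 2.32, they were Gpr37 (0.025), an orphan receptor best known from brain, Iglon5 (0.055), a neural adhesion protein, and Fmo2 (0.089), a flavin monooxygenase. Gpr37 had levels of -3.67 and -4.15 at 0 min without and with EPS, and -5.46 and -5.93 at 5 h. For Esrrg they were Gpr146 (0.047), Ptk2b (0.050), a calcium-linked tyrosine kinase, and Ttc30a2 (0.051). For Ppard they were Tedc2 (0.044), Slc39a14 (0.050), a zinc and iron transporter, and Nrp1 (0.057), a coreceptor for semaphorins and VEGF. Slc39a14 had levels of 1.0 and 0.97 at 0 min and 2.32 and 2.23 at 5 h. These matches rest on 4 arrays and carry no test.

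**Figure D5:**
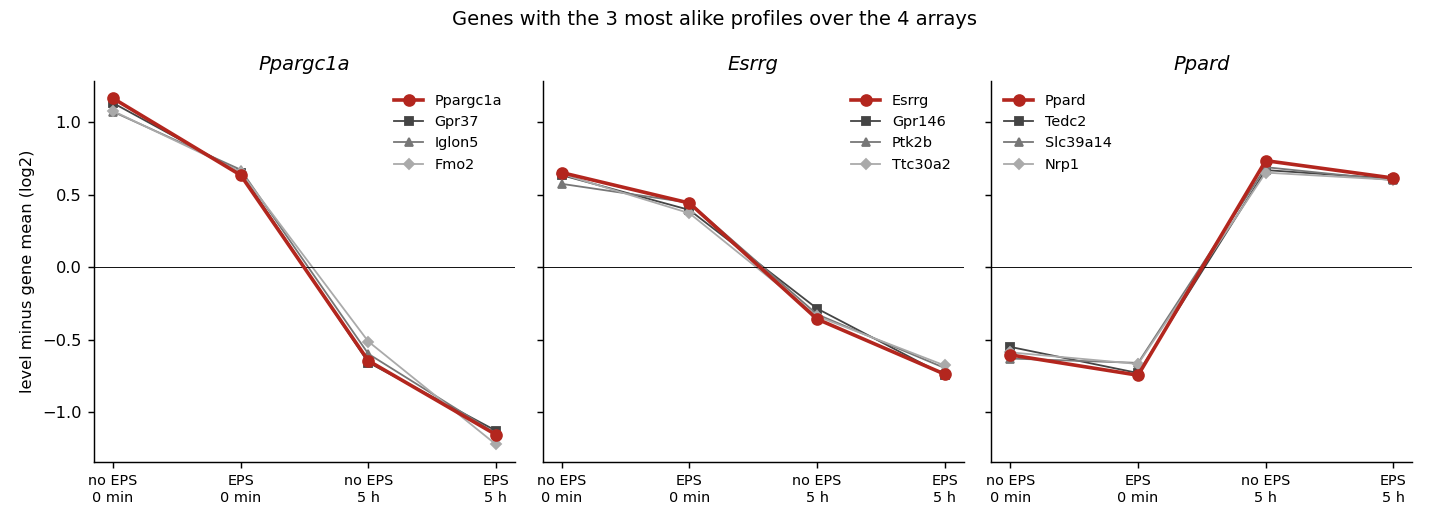
Levels centred on each gene's mean (y axis, log2) on the 4 arrays (x axis) for Ppargc1a, Esrrg and Ppard (red) and the 3 genes with the most similar course to each (grey). Ppargc1a and Gpr37 differ by a root mean square of 0.025, and the genes beside Ppard are low at 0 min and high at 5 h.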

How the data were processed

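Total RNA of 4 samples, 1 per group, was hybridised to 4 single-colour Agilent arrays. The deposited values are spot intensities from Feature Extraction 10.7.3.1, background-subtracted and detrended per the file headers, and the array design gives positions on mm9. The deposited value table held the same intensities for all 44397 spots of each array, which makes it linear with neither centring nor scaling, and had column medians of 57.6 to 75.2. Non-control spots (43020 per array) were used, 112 to 141 spots per array with an outlier flag were left out, and log2 signals were set relative to the 75th percentile of their array. The probe with the highest mean level stood for its gene. Of 39429 probes, 26055 matched the RefSeq table (GRCm38.p6) by accession, which was used for names; the others kept the file's name.

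A difference was counted when it reached 2-fold between arrays on both of which the gene was well above background (all 4 for the difference of EPS effects). With 1 array per group there are 0 residual degrees of freedom, so no p-value is given, and the number of arrays limits the precision. Counting was tested on simulated data. The members, the 9 gene lists and 8 marker lists were chosen with earlier results of these data known. All 10 genes and their probes are named; of each list, the genes at 2-fold, or otherwise the highest and the lowest, are named, except 1 gene that is not reported here; and the 3 most similar genes are named for each of the 10 whose level spans at least 1. Alternatives were normexp background correction (offset 50), quantile normalization, median scaling, the value table, the mean of a gene's probes, no filter on dim probes, a filter on all 4 arrays, and a 1.5-fold rule. Tools were R 4.3.3 with limma 3.58.1, and Python 3.11.15 with pandas 2.3.3 and numpy 2.4.6.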

Additional observations from a re-analysis of the deposited data

How the results depend on the processing

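No paired analysis was possible because each group has 1 array. Of 350 values of a gene's difference under 7 alternatives, 323 stayed within the spot error of the value reported. The 33 differences larger than the spot error kept their sign in all 231 recomputations. Both totals include the value table and the 2 filter settings, which could not change a gene's value. Each of these 3 settings added 50 unchanged values to the 350. The mean of a gene's probes could not change Ppargc1b, Esrra, Ppard or Pdk4 either, as each has 1 probe. Signs changed in 9 cases, all for differences within the spot error. The count of the 10 genes at 2-fold over time went from 3 to 2 with normexp and with quantile normalization in both comparisons, and with median scaling without EPS; Esrrg was the gene lost. The value table gave the same values.

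Over all genes, normexp gave 42 higher and 29 lower at 2-fold for EPS at 0 min (102 and 147 in the setting used), 43 and 31 at 5 h (128 and 97), 186 and 226 over time without EPS (322 and 547), 256 and 341 after EPS (443 and 674) and 34 and 73 for the difference of EPS effects (181 and 180). Without a filter on dim probes, 31896 genes gave 1074 and 1172, 1085 and 1445, 1234 and 1877, 1397 and 2543, and 1861 and 2117 in the same order. For EPS at 5 h, 56.9% of the calls were higher, against 68.5% with median scaling. Signal over background limits Esrrg, the dimmer probes of Ppargc1a, Ppara and Ucp3, Perm1 and Slc25a34.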

Other observations

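Genes of muscle that respond to FoxO factors and glucocorticoids, a list of atrophy and stress genes, had medians of -0.05 and -0.04 with EPS at 0 min and 5 h, and -0.14 and -0.23 over time without and after EPS. Cebpd, a transcription factor induced early in stress, was the most variable of them: its levels were 2.11 without EPS and 2.89 with EPS at 0 min, and 4.93 and 3.92 at 5 h. It was 2.81 higher over time without EPS and 1.04 higher after EPS, so that with EPS it was 0.78 higher at 0 min and lower by 1.0 at 5 h (log2 difference -1.0). Foxo4 was the lowest with EPS at 0 min (-0.91) and Ddit4 the highest at 5 h (0.19). Sesn1, a stress-induced sestrin, passed 2-fold over time without EPS (-1.0), and Glul, glutamine synthetase, after EPS (-1.01). Both lie at the threshold and fell short of 2-fold with normexp and with median scaling. Cebpd with EPS at 5 h fell short with normexp, quantile normalization and median scaling.

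Plin1, the lipid droplet protein of adipocytes, was well above background on the stimulated 0 min array alone, with a signal of 120 there and 3.51 to 4.39 on the other arrays. This value rests on 1 array, and its cause was not tested. Of the other adipocyte markers, Adipoq, Cfd, Lep, Retn, Lipe and Cidec failed the background test on every array, and Fabp4 and Pparg passed on all 4. Pdgfrb, a receptor of fibroblasts and pericytes, was lower at 5 h by 1.77 without EPS (log2 difference -1.77) and by 2.43 after EPS (-2.43).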
